A study of Macaca fascicularis with 12 samples.

Results

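The IFIT genes encode a family of interferon-induced antiviral proteins built from tetratricopeptide repeats. Of the 4 genes IFIT1, IFIT2, IFIT3 and IFIT5, 3 were measured on the macaque array used here, by 10 probe sets of 52766, array controls left out, and the annotation names 14132 genes in all. Every probe set whose single symbol in the platform annotation was one of these 4 was taken, whatever its values. IFIT1 had 1 probe set, IFIT2 had 6 and IFIT3 had 3, while 0 carried the symbol IFIT5, so IFIT5 was not analysed here. All 10 passed the filter on dim signals and were among the 31660 probe sets tested.

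The arrays came from 3 adult male cynomolgus macaques. The BV group is left-hemisphere brain tissue that received 4 intrastriatal injections of BV-HSVtk, a baculovirus vector, at 1e8 viral particles in 10 µL each. The mock group is right-hemisphere tissue of the same 3 animals, injected at the matching coordinates with Sf9 insect cell medium that held no virus and had gone through the same purification as the vector, membrane chromatography followed by high-speed centrifugation. Tissue was taken after 2 days, 2 pieces of about 100 mg per hemisphere and 1 array per piece, which gives 6 BV and 6 mock arrays. Replicates 1 and 2 are animal 1, 3 and 4 animal 2, and 5 and 6 animal 3, with odd numbers for piece 1. BV was always on the left, which means that an effect of treatment and one of hemisphere cannot be told apart, and none of these samples came from an uninjected animal.

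When a cell detects foreign nucleic acid it secretes type I interferon, which acts through its receptor and the JAK kinases to switch on many genes, the IFIT genes being among the fastest and strongest. IFIT proteins bind viral RNA or the translation machinery. In human cells IFIT1 recognises RNA ends that lack the methyl marks of the host's cap and blocks their translation, IFIT3 binds and stabilises IFIT1, IFIT2 binds RNA as a partner of both and has been tied to cell death, and IFIT5 binds RNA ends that carry phosphates. In mouse brain Ifit2 is known for limiting the spread of neurotropic viruses.

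Signals are given as log2 values after quantile normalization of the 12 arrays, with 3.49 added to each signal before taking logarithms. Differences are BV minus mock in log2 units with the standard error (SE) of a limma fit in which the 2 pieces of a hemisphere were averaged and animal was the block (n = 3 animals). A probe set counted as called when its Benjamini-Hochberg adjusted p over all 31660 tested was under 0.05. The arrays of piece 1 and piece 2 were deposited on different scales, with median signals of 50.2 to 62.8 and 25.4 to 32.7. The 2% trimmed mean of the deposited signals was 100.01 on every piece 2 array and 141.5 to 189.5 on piece 1 arrays. A difference between pieces and one between these 2 sets of arrays therefore cannot be told apart. Mock replicate 6 stood apart in RNA quality, with an actin 3'/5' signal ratio of 2.40, against 1.1 to 1.4 on the other 11 arrays. Main differences of the IFIT1 and IFIT3 probe sets, and of 2 IFIT2 probe sets, are given with and without it. Other results include it unless stated otherwise.

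The probe sets of the family fell into 2 kinds. Of the 10 probe sets, 6 had every BV array above every mock array, namely the IFIT1 probe set, all 3 of IFIT3 and 2 of the 6 of IFIT2. Over all tested probe sets 0.237% showed that separation. Separation of this kind also puts them higher in all 6 replicate pairs, where 3.37% of all tested lay. Their BV minus mock differences were all above 1 (1.34% of all tested), and their unadjusted limma p all under 0.05 (5.15% of all tested, in the higher direction); these measures describe the same arrays and add no independent support. The remaining 4, all annotated as IFIT2, had overlapping groups and differences between 0.0052 and 0.29. The median difference over the 10 was 1.88, with 10 of 10 above 0, beside -0.021 over all tested probe sets, of which 46.9% were above 0. In bulk tissue a change in the number of cells that express a gene and a change in its level per cell cannot be told apart.

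**Figure D1:**
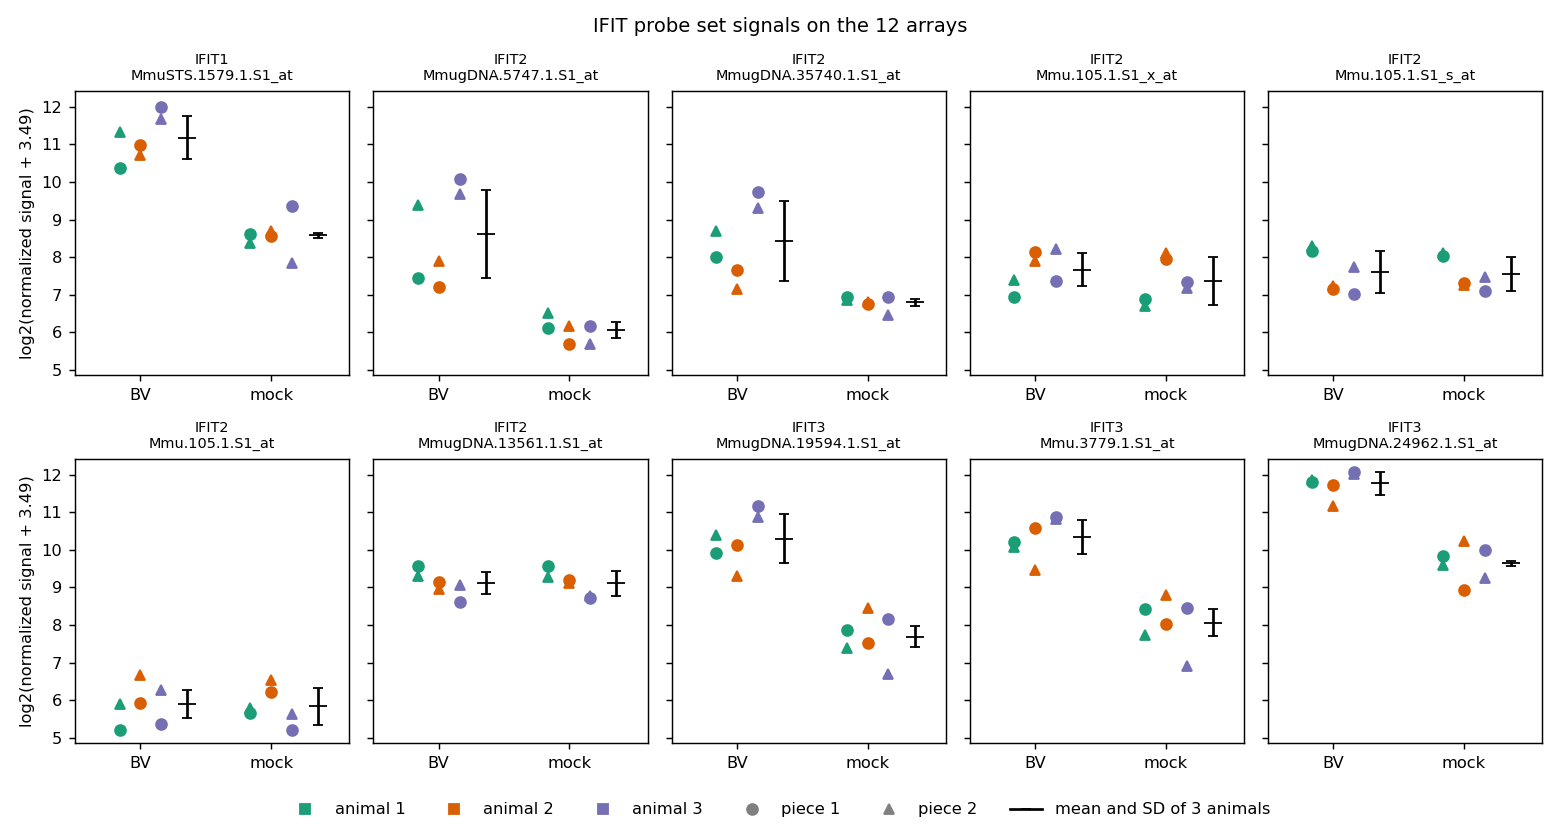
Log2 normalized signal of each IFIT probe set on the 12 arrays, BV left and mock right in each panel, with colours for animals, circles for piece 1, triangles for piece 2, and bars for the mean and SD of 3 animals. The IFIT1 panel, the 3 IFIT3 panels and the IFIT2 panels of MmugDNA.5747.1.S1_at and MmugDNA.35740.1.S1_at show BV arrays above all mock arrays, and the other 4 IFIT2 panels show overlap.

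IFIT3, the partner that stabilises IFIT1, gave the one member probe set that was called. In MmugDNA.24962.1.S1_at the BV hemispheres of animals 1, 2 and 3 had log2 signals of 11.83, 11.44 and 12.04, and their mock hemispheres had 9.72, 9.58 and 9.63. On single arrays the normalized linear signal had a lowest, median and highest value of 2275, 3646 and 4315 in BV tissue, against 486, 844 and 1201 in mock tissue. The groups did not overlap, and the lowest BV array, replicate 4, lay 0.92 log2 units above the highest mock array, replicate 4 of the same animal. IFIT3 by this probe set rose by 2.13 ± 0.14, or 4.36-fold (limma adjusted p = 0.0256). Of all tested probe sets, 0.0284% were called higher and 0 lower. The highest log2 value on the normalized scale was 13.06, so the BV values of this probe set lie towards the top of the range.

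The other 2 IFIT3 probe sets had larger differences and larger spread. Mmu.3779.1.S1_at had log2 signals of 10.15, 10.01 and 10.86 in the BV hemispheres of animals 1, 2 and 3, against 8.08, 8.41 and 7.68 in their mock hemispheres, a difference of 2.28 ± 0.30 (limma adjusted p = 0.201). MmugDNA.19594.1.S1_at had 10.16, 9.72 and 11.02 in BV tissue, against 7.64, 7.99 and 7.43 in mock tissue, a difference of 2.61 ± 0.34 or 6.12-fold (limma adjusted p = 0.201). The normalized linear signals of Mmu.3779.1.S1_at were 701, 1348 and 1885 (lowest, median and highest) over BV arrays and 116, 297 and 442 over mock arrays. Those of MmugDNA.19594.1.S1_at were 631, 1226 and 2296 over BV arrays and 101, 206 and 349 over mock arrays. Neither was called, yet in both the groups did not overlap on single arrays. The smallest pair differences were 0.66 and 0.85, both in pair 4, and the largest 3.92 and 4.18, both in pair 6. The mock array of pair 6 is the one with the high actin ratio. Without it the differences of the 3 IFIT3 probe sets were 2.00, 2.02 and 2.37 in the order above, with adjusted p of 0.00142, 0.0162 and 0.0249. Over all 31660 tested probe sets 43 were called without that array.

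IFIT1, the sensor of improperly capped RNA, was measured by MmuSTS.1579.1.S1_at. Its log2 signals were 10.85, 10.84 and 11.84 in the BV hemispheres of animals 1, 2 and 3, and 8.50, 8.63 and 8.61 in their mock hemispheres. As normalized linear signal the 6 BV arrays ran from 1316 over a median of 2289 to 4085, and the 6 mock arrays from 226 over 383 to 658. Groups were apart by 1.00 log2 unit, the widest gap of the 10 probe sets. The difference was 2.60 ± 0.22, or 6.05-fold, and missed the threshold (limma adjusted p = 0.072), ranking 10th of all tested probe sets by p. Without mock replicate 6 it was 2.34 and passed (adjusted p = 0.00142).

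Averaged over animals, IFIT1 was at 11.18 ± 0.57 in BV hemispheres and 8.58 ± 0.070 in mock hemispheres on the log2 scale (SD, n = 3 each), and IFIT3 MmugDNA.24962.1.S1_at was at 11.77 ± 0.31 in BV hemispheres and 9.64 ± 0.070 in mock hemispheres. The small mock spread rests on mock replicate 6. Without it the mock hemispheres of animals 1, 2 and 3 were at 8.50, 8.63 and 9.37 for IFIT1 (SD 0.47), and at 9.72, 9.58 and 10.00 for IFIT3 MmugDNA.24962.1.S1_at (SD 0.21). The pieces of 1 hemisphere had absolute differences of up to 1.53 for IFIT1, in the mock hemisphere of animal 3, and up to 1.30 for IFIT3 MmugDNA.24962.1.S1_at, in the mock hemisphere of animal 2.

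IFIT2, the RNA-binding member linked to cell death, had 2 probe sets that separated the groups. MmugDNA.5747.1.S1_at had log2 signals of 8.41, 7.55 and 9.88 in the BV hemispheres of animals 1, 2 and 3, against 6.31, 5.94 and 5.92 in their mock hemispheres. The difference was 2.56 ± 0.44, or 5.89-fold (limma adjusted p = 0.317). MmugDNA.35740.1.S1_at had 8.35, 7.40 and 9.52 in BV tissue, against 6.90, 6.78 and 6.70 in mock tissue, a difference of 1.63 ± 0.40 (limma adjusted p = 0.499). Neither was called. As normalized linear signal MmugDNA.5747.1.S1_at ran from 144 over a median of 447 to 1085 in BV tissue, and from 47.8 over 66.7 to 87.2 in mock tissue. MmugDNA.35740.1.S1_at ran from 138 over 332 to 845 in BV tissue, and from 84.2 over 110 to 120.0 in mock tissue. Mock arrays lay in a narrow band for both, while BV arrays spread widely, and the 2 pieces of the BV hemisphere of animal 1 differed by 1.93 for MmugDNA.5747.1.S1_at. The gap between the lowest BV and the highest mock array was 0.70 for the first and 0.20 for the second, the narrowest of the 6. Animal 3 had the highest BV level in both. Without mock replicate 6 the differences were 2.48 for MmugDNA.5747.1.S1_at and 1.55 for MmugDNA.35740.1.S1_at (limma adjusted p = 0.095 and 0.26).

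The other 4 IFIT2 probe sets showed no separation. MmugDNA.13561.1.S1_at, the brightest of the gene, had log2 signals of 9.43, 9.06 and 8.84 in the BV hemispheres of animals 1, 2 and 3, and 9.42, 9.16 and 8.75 in their mock hemispheres, a difference of 0.0052 ± 0.13 with a 95% interval of -0.31 to 0.32 (limma adjusted p = 0.99). The remaining 3 share the design name Mmu.105.1.S1 and differ in suffix. Differences were 0.051 ± 0.18 for Mmu.105.1.S1_at, 0.055 ± 0.15 for Mmu.105.1.S1_s_at and 0.29 ± 0.17 for Mmu.105.1.S1_x_at, with adjusted p of 0.913, 0.883 and 0.579. The upper ends of their 95% intervals were 0.49, 0.41 and 0.70, all under the differences of the 2 probe sets that separated the groups. Those 2 had intervals of 1.48 to 3.64 for MmugDNA.5747.1.S1_at and 0.65 to 2.61 for MmugDNA.35740.1.S1_at. The latter overlaps the interval of Mmu.105.1.S1_x_at. In Affymetrix naming the suffix _s_at marks probes shared by several transcripts and _x_at marks probes that may bind unrelated ones. Mmu.105.1.S1_s_at and Mmu.105.1.S1_x_at may therefore not measure IFIT2 alone. MmugDNA.13561.1.S1_at and Mmu.105.1.S1_at carry the plain suffix _at, as do the 2 probe sets that separated the groups. Probe sequences were not used here, and which IFIT2 probe sets measure the IFIT2 transcript was not tested. The value given for IFIT2 thus depends on the probe set chosen for it, from 1.00-fold by the brightest to 5.89-fold by MmugDNA.5747.1.S1_at.

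**Figure D2:**
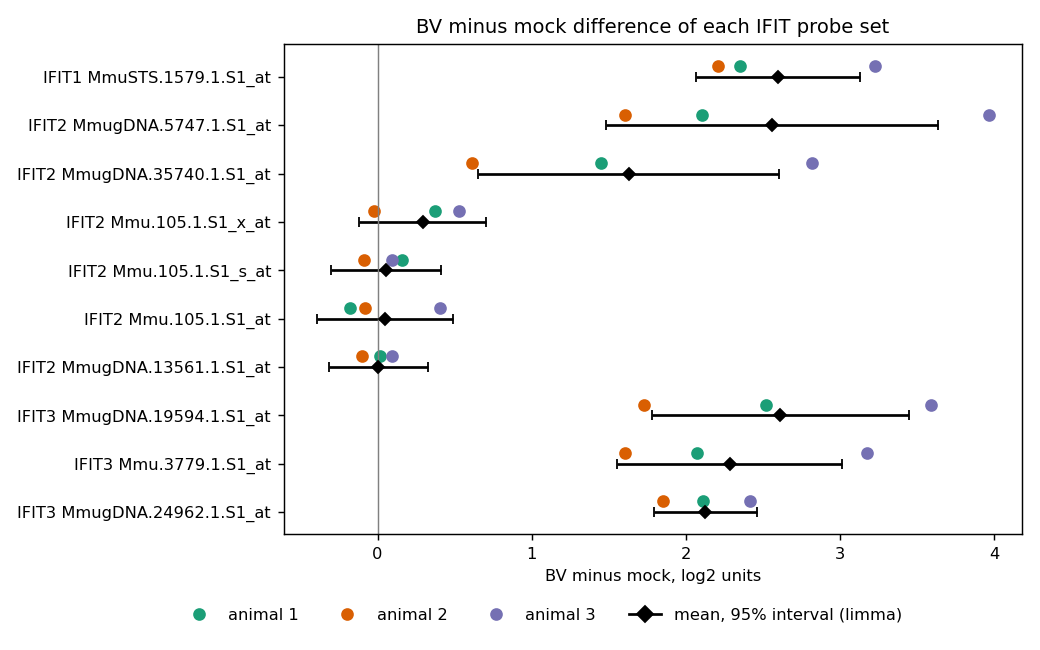
BV minus mock difference in log2 units for each IFIT probe set, with coloured circles for the 3 animals and diamonds with bars for the limma estimate and its 95% interval. The 6 probe sets that separated the groups have estimates from 1.63 to 2.61, and the other 4 IFIT2 probe sets have intervals that include 0.

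The IFIT difference was smallest in animal 2 and largest in animal 3 for each of the 6 probe sets. Without mock replicate 6 it was still smallest in animal 2 in 6 of 6 and largest in animal 3 in 5 of 6, since IFIT3 MmugDNA.24962.1.S1_at then had 2.11, 1.85 and 2.04 in animals 1, 2 and 3, and IFIT1 had 2.35, 2.21 and 2.47. BV replicate 5, piece 1 of animal 3, was the highest BV array in 6 of 6, and mock replicate 6 was the lowest mock array in 5 of 6, IFIT3 MmugDNA.24962.1.S1_at being the exception. IFIT1 differed by 2.35, 2.21 and 3.23 in animals 1, 2 and 3. IFIT3 MmugDNA.24962.1.S1_at differed by 2.11, 1.85 and 2.41, the narrowest range of the 6. The IFIT2 probe set MmugDNA.5747.1.S1_at differed by 2.10, 1.61 and 3.97, and MmugDNA.35740.1.S1_at by 1.45, 0.61 and 2.82. Whether the treatment difference varied between animals was tested with limma on the 12 single arrays, with interaction terms and a term for piece. The 2 pieces of a hemisphere stood in for replicates, so the p of this test measures the spread between pieces. Variation between hemispheres cannot be told apart from the interaction. The test called 0 of 31660 probe sets, with 1620 at an unadjusted p under 0.05. For these 2 IFIT2 probe sets the unadjusted p was 0.0189 and 0.00189 (adjusted p = 0.89 for both), so a difference between animals was not established for any member.

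A second fit kept single arrays and took the 6 replicate pairs as its block, which treats the pieces of an animal as independent. In it 5 of the 10 member probe sets were called higher, and 0.167% of all tested probe sets were. These 5 were IFIT1 (adjusted p = 0.005), the IFIT3 probe sets MmugDNA.24962.1.S1_at (0.00921), MmugDNA.19594.1.S1_at (0.0266) and Mmu.3779.1.S1_at (0.0426), and IFIT2 MmugDNA.5747.1.S1_at (0.0454). IFIT2 MmugDNA.35740.1.S1_at was not among them (adjusted p = 0.12). In the piece 1 arrays alone IFIT1 and the 3 IFIT3 probe sets were called (adjusted p = 0.0447 for all 4), with differences of 2.26 for IFIT1 and 2.26 to 2.56 for IFIT3. Over all 31660 tested probe sets 14 were called in these arrays. In the piece 2 arrays alone the differences were 2.93 for IFIT1 and 1.98 to 2.67 for IFIT3. There 0 probe sets of any gene were called by limma, with 1747 at an unadjusted p under 0.05. The piece 2 arrays include mock replicate 6, which is in pair 6. In pairs 2, 4 and 6 IFIT1 differed by 2.95, 2.01 and 3.83, and IFIT3 Mmu.3779.1.S1_at by 2.34, 0.66 and 3.92.

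The call of IFIT3 MmugDNA.24962.1.S1_at depended on single animals and arrays while its difference did not. It was lost without animal 1 (adjusted p = 0.127), BV replicate 3 (0.0618), BV replicate 6 (0.0655), mock replicate 3 (0.328) or mock replicate 5 (0.419), and the difference stayed between 1.91 and 2.34 when any one animal or array was left out. IFIT1 in turn was called without animal 2 (adjusted p = 2.07e-05), animal 3 (0.00166), BV replicate 1 (0.0295), 4 (0.0464) or 5 (0.0202), or mock replicate 1 (0.0264), 4 (0.0322) or 6 (0.00142). Over all 31660 tested probe sets, 1845 were called without animal 2 and 82 without animal 3. The counts over all were 9, 8 and 11 without BV replicates 1, 4 and 5. They were 9, 28 and 43 without mock replicates 1, 4 and 6.

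**Figure D3:**
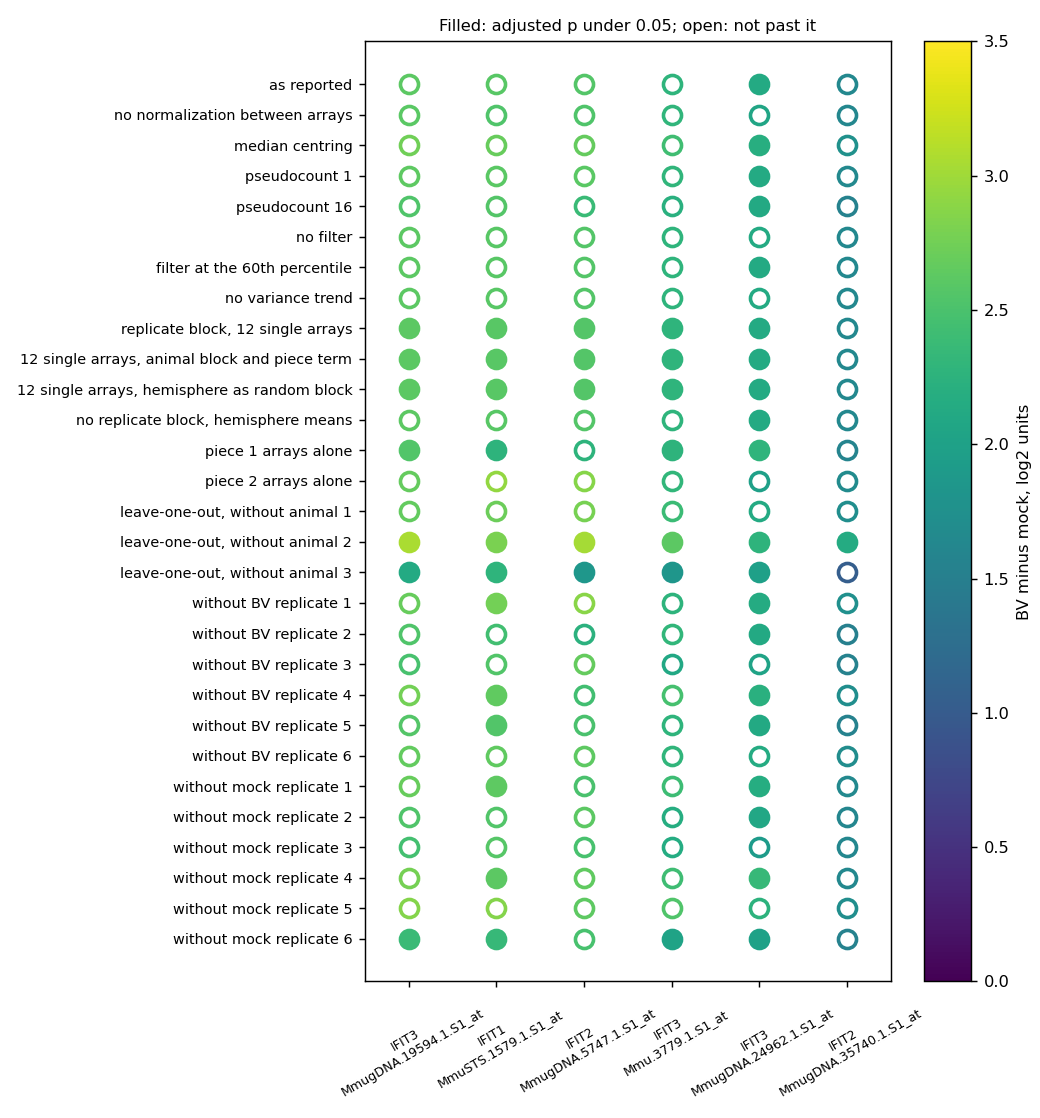
The 6 IFIT probe sets that separated the groups (columns) under each way of processing (lines), with colour for the BV minus mock difference in log2 units and filled circles where the adjusted p was under 0.05. Every difference is above 0, from 1.03 to 3.06, and IFIT3 MmugDNA.24962.1.S1_at is filled in 19 of 28 alternatives and IFIT2 MmugDNA.35740.1.S1_at in 1.

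The 6 probe sets that separated the groups were compared with each other from array to array. Over the 12 arrays their pairwise Pearson correlations ran from 0.84 to 0.99, with a median of 0.93. These 6 were grouped by their separation of BV from mock arrays, which by itself raises their correlations over the 12 arrays. It also keeps correlations with the 4 overlapping IFIT2 probe sets low, so these values add no independent support. Within the 6 BV arrays the median was 0.89 (0.48 to 0.96), and within the 6 mock arrays 0.70 (0.37 to 0.98). The 4 other IFIT2 probe sets correlated with these 6 at -0.18 to 0.38. Among themselves they ran from -0.56, between Mmu.105.1.S1_x_at and Mmu.105.1.S1_s_at, to 0.76, between Mmu.105.1.S1_s_at and MmugDNA.13561.1.S1_at. The arrays share animals and normalization, so these values are descriptions. Mock replicate 6, the lowest mock array for most of the 6 probe sets, is part of the mock values, which were not computed without it.

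**Figure D4:**
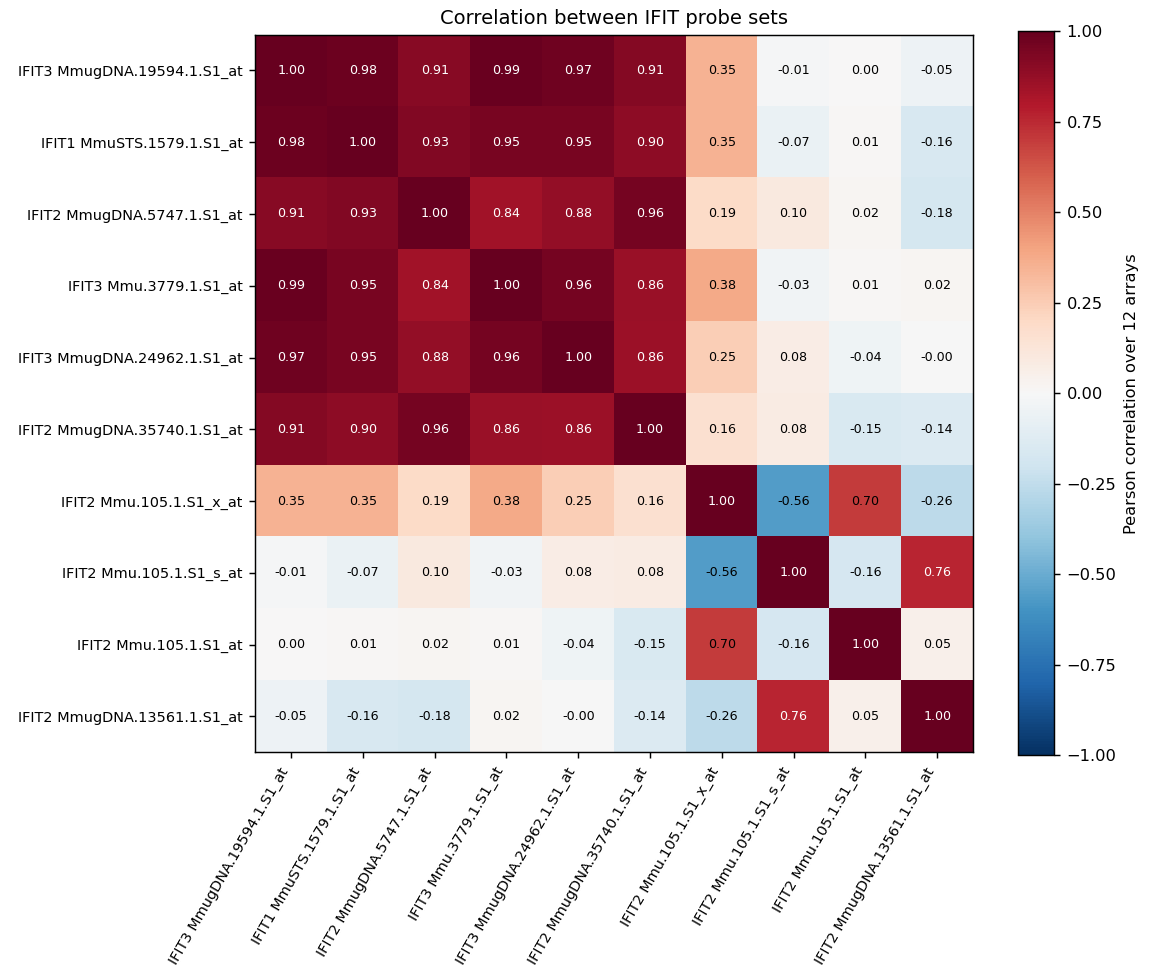
Pearson correlation of log2 signals over the 12 arrays between each pair of IFIT probe sets, ordered by BV minus mock difference, red for positive and blue for negative. The first 6 form a block from 0.84 to 0.99, and the 4 IFIT2 probe sets at the end correlate with that block at 0.38 or less.

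The profiles most like each gene's brightest probe set were sought among 18101 other named probe sets past the filter, by Pearson correlation over the 12 arrays. For IFIT1 they were those of LGALS3BP, a secreted glycoprotein (r = 0.98), ISG15, the ubiquitin-like modifier (0.98), IFI44 (0.97), LOC696037 (0.97) and the antiviral GTPase MX1 (0.96). Within the 6 BV arrays alone LGALS3BP correlated with IFIT1 at 0.97 and ISG15 at 0.87, and within the 6 mock arrays the values were 0.77 and 0.78. For IFIT3 MmugDNA.24962.1.S1_at they were MX1 (0.97), TTLL6 (0.96), RPL24 (0.95), ISG15 (0.95) and LGALS3BP (0.94). Of these, RPL24, a ribosomal protein gene, correlated with IFIT3 at -0.16 within the 6 BV arrays and at 0.74 within the 6 mock arrays. For the brightest IFIT2 probe set, MmugDNA.13561.1.S1_at, the list was CACNG1 (0.95), DNAJC27 (0.94), HERPUD2 (0.94), STARD3NL (0.93) and CLCN3 (0.92). Their BV minus mock differences were between -0.025 and 0.14. The IFIT2 probe set MmugDNA.5747.1.S1_at was looked up after its values were seen. It was most like OAS3 MmugDNA.20819.1.S1_at (0.98), an enzyme of double-stranded RNA defence, and TRIM25 (0.98), a ubiquitin ligase of RNA sensing. That OAS3 probe set had a BV minus mock difference of 2.12, while the brightest OAS3 probe set had 0.17.

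Genes of the wider pathway were compared by the brightest probe set of each. Among other interferon-stimulated effectors, 29 of 30 tested had higher and 1 lower values, with a median difference of 1.35, and 3 were called. These were ISG15 at 3.56 ± 0.13 (adjusted p = 0.00539), MX1 at 3.04 ± 0.19 (0.0256) and IFI27 at 2.55 ± 0.16 (0.0256), by limma. Every BV array lay above every mock array for 11 of the 30. In animals 1, 2 and 3 the median of this list was 1.35, 0.71 and 2.15. All 5 lists of pathway and neighbouring genes, and 4 of 11 lists of cell type markers (astrocyte, oligodendrocyte, microglia, and monocyte and neutrophil), had their lowest median in animal 2 and their highest in animal 3. Of 39 listed genes, 8 had no probe set of their own symbol and 1 was below the filter.

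Upstream of the IFIT genes stand the sensors of nucleic acid, the interferons and their receptors. Of 14 tested sensors and interferon regulatory factors 0 were called in the limma fit with animal as the block, 9 were higher and 5 lower with a median of 0.20, and 4 had an unadjusted p under 0.05. That count depends on the probe set for IRF7, a factor that drives interferon genes, which had -0.89 ± 0.64 by its brightest probe set (-1.51, 1.21 and -2.37 in animals 1, 2 and 3) and 2.07 by its other one. IFIH1, the RNA sensor MDA5, had a difference of 1.97 ± 0.24 (adjusted p = 0.194) and was called in the fit on 6 pairs (0.0266). IRF1, a transcription factor that can bind IFIT promoters, had 1.00 ± 0.40 (adjusted p = 0.564), made of 0.68, 0.063 and 2.24 in animals 1, 2 and 3. MAVS, also among the 4 at an unadjusted p under 0.05, was lower in BV tissue, at -0.39 ± 0.15 (limma adjusted p = 0.564). It had -0.57, -0.33 and -0.25 in animals 1, 2 and 3. Of 6 tested interferon receptor and JAK-STAT genes 0 were called in either fit and 1 had an unadjusted p under 0.05, with IL10RB, a receptor chain for interferon lambda, at 1.04 ± 0.42 and IFNAR2, a chain of the type I interferon receptor, at 0.74 ± 0.25 (adjusted p = 0.564 for both). No probe set carried the symbol IFNAR1, the other chain of that receptor, and IFNB1, the gene of interferon beta, lay below the filter.

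IFIT proteins act on capped RNA and on translation initiation. Of 15 tested genes of RNA capping and translation initiation, 0 were called in either fit, 1 had an unadjusted p under 0.05 and the median was 0.039. The largest differences were those of EIF3B at 0.55 ± 0.19 (adjusted p = 0.564) and EIF3L at 0.32 ± 0.16 (adjusted p = 0.569), both subunits of the initiation factor that human IFIT1 binds. EIF3E, the subunit that IFIT1 and IFIT2 are known to contact, had -0.0078 ± 0.099 (adjusted p = 0.978).

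In the RefSeq gene table of Macaca fascicularis (assembly T2T-MFA8v1.1) the 4 IFIT genes lie together on 1 chromosome in the order IFIT2, IFIT3, IFIT1 and IFIT5, flanked by LIPA, an acid lipase gene, and SLC16A12. The array files name no genome build, so positions are not given. Of 9 tested genes that neighbour the cluster 0 were called in either fit and 2 had an unadjusted p under 0.05, with a median of 0.096. The nearest tested neighbours outside the family, LIPA and PANK1, had differences of -0.18 ± 0.15 (adjusted p = 0.646) and 0.097 ± 0.15 (adjusted p = 0.798). CH25H, an interferon-induced enzyme that hydroxylates cholesterol, had 0.95 ± 0.32 (adjusted p = 0.564). IFIT1B, a paralogue whose RefSeq record overlaps that of IFIT1, had 0.87 ± 0.44 (adjusted p = 0.569), with -0.37, 0.88 and 2.09 in animals 1, 2 and 3. Paralogues of this family are alike in sequence, and sharing of signal between the IFIT1 and IFIT1B probe sets was not tested.

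**Figure D5:**
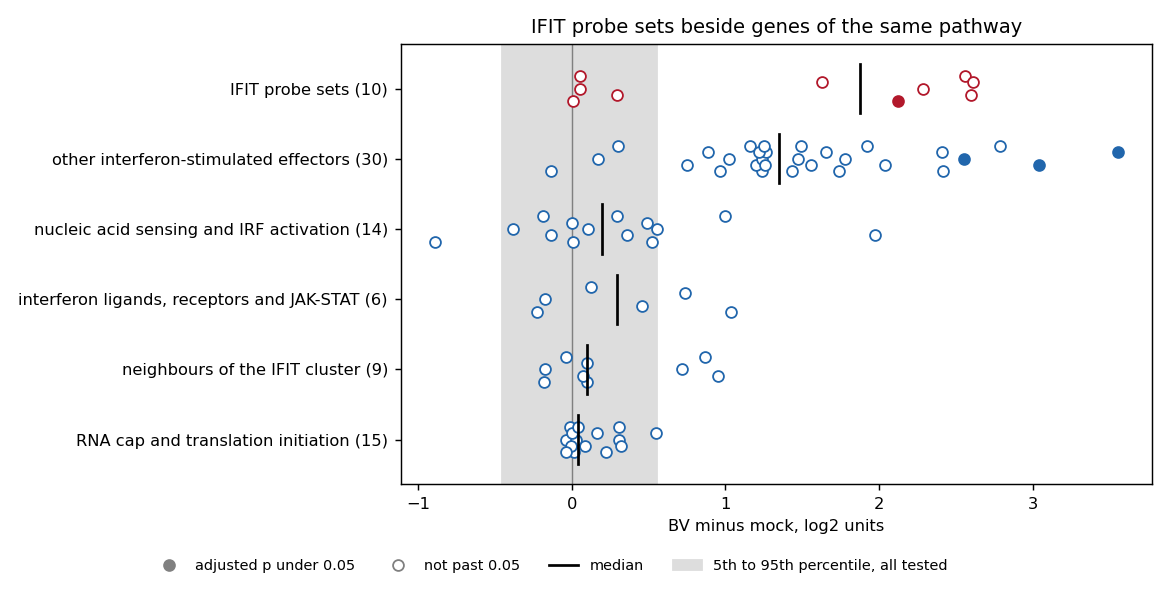
BV minus mock differences in log2 units of the 10 IFIT probe sets and of genes of 5 related lists, each gene by its brightest probe set, with filled circles where the adjusted p was under 0.05, black lines for medians and a grey band from the 5th to the 95th percentile of all tested probe sets. IFIT medians and those of other effectors lie at 1.88 and 1.35, and the other 4 lists have medians of 0.29 or less.

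Markers of cell types were read from the same bulk pieces, and cell content itself was not measured. The tissue carried brain markers, with MBP of myelin averaging 12.67 in BV tissue and 12.68 in mock tissue on the log2 scale, and GFAP of astrocytes 12.40 in BV tissue and 12.35 in mock tissue. Of 7 tested astrocyte markers 4 were higher and 3 lower, 0 were called and 2 had an unadjusted p under 0.05. These 2 were SLC1A2, a glutamate transporter, at -0.998 ± 0.20 (adjusted p = 0.407) and S100B at -0.28 ± 0.078 (adjusted p = 0.564), both lower in BV tissue in 3 of 3 animals.

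All 7 tested markers of striatal medium spiny neurons were lower in BV tissue (0 called, 0 at an unadjusted p under 0.05), with a mean level over the list of 5.76 to 9.47 on BV arrays and 6.14 to 10.45 on mock arrays. Their median difference was -1.64, 0.99 and -2.28 in animals 1, 2 and 3. Markers of thalamus had 5 of 6 higher, 0 called and 4 at an unadjusted p under 0.05, with a mean level of 6.31 to 9.25 on BV arrays and 5.99 to 9.21 on mock arrays. Their median was 0.94, and 1.33, 0.60 and 0.90 by animal, so it was above 0 in 3 of 3 animals, as the differences of the 6 IFIT probe sets were. SHOX2, a transcription factor of thalamic neurons, had the largest difference of the list, with 1.93, 1.501 and 1.77 in animals 1, 2 and 3 (limma adjusted p = 0.101). In the fit on 6 pairs its adjusted p was 0.207. PRKCD was lower in BV tissue, at -0.42 ± 0.22 (limma adjusted p = 0.57), with -0.80, 0.15 and -0.62 in animals 1, 2 and 3. RORA had 0.47, -0.30 and 0.93.

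Markers of monocytes and neutrophils had 7 of 9 higher, 0 called and 5 at an unadjusted p under 0.05. Their mean level was 6.55 to 8.18 on BV arrays and 5.92 to 8.0 on mock arrays. Of these 5, ITGAM was lower in BV tissue, at -0.62 ± 0.15 (limma adjusted p = 0.507), and the others were higher. ITGAM had -0.78, -0.39 and -0.69 in animals 1, 2 and 3. S100A12 and CCR2 of that list lay below the filter. The median difference of the list was 0.94, -0.059 and 1.26 in animals 1, 2 and 3. In animal 2 the members ran both ways, with CSF3R, a growth factor receptor of neutrophils, at 0.77, FCN1 at 0.49 and S100A8 at -0.59. Microglial markers had 7 of 10 higher with a median of 0.23, 0 called and 4 at an unadjusted p under 0.05, and a mean level of 8.31 to 9.40 on BV arrays and 7.92 to 9.24 on mock arrays. The complement genes C1QA, C1QB and C1QC were among these 4, at 0.58 ± 0.11, 0.95 ± 0.17 and 0.85 ± 0.21 (adjusted p = 0.398, 0.323 and 0.516), each smallest in animal 2 and largest in animal 3, as the IFIT probe sets were. C1QA had 0.14 by its other probe set. The remaining gene of the 4, CD68, had 1.41 ± 0.47 (limma adjusted p = 0.564) by its brightest probe set and -0.17 by its other one. The markers that were lower in BV tissue were CX3CR1 at -0.33, P2RY12 at -0.10 and TREM2 at -0.0056. T and NK cell markers had 5 of 6 higher with a median of 0.11, 0 called and 2 at an unadjusted p under 0.05. The part of these markers in the IFIT differences was not tested.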

How the data were processed

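Biotin-labelled cRNA made from 5 µg of total RNA (Trizol, column clean-up) was hybridised to 12 macaque arrays, per the labels' protocols, which name labelling kits of 2 makers. The authors deposited 1 linear intensity per probe set and array. GCOS 1.4.0.036 is named in the submitters' processing notes, and how probes were summarised or scaled is not stated in the sources used here. The deposited values show a common trimmed mean of 100.01 on the piece 2 arrays and none on the piece 1 arrays. Groups follow the sample titles. Intensities were quantile normalized and put on a log2 scale after adding 3.49 (their 10th percentile), which understates differences of dim probe sets. Array controls (99) were removed, and tests covered probe sets whose mean log2 signal reached the 40th percentile (4.95). Symbols come from the annotation of a rhesus array (24969 probe sets with 1 symbol, 361 with several, 27535 with none) and can be outdated; cynomolgus RNA may bind less well where the species differ. All 4 member genes are in the Macaca fascicularis RefSeq table.

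The pieces of a hemisphere were averaged. The model (limma 3.58.1, R 4.3.3) had animal as its block, eBayes with a trend and 2 residual degrees of freedom, and tests were two-sided. Each animal carries both treatments, which pairs the samples: deviations of both hemispheres from their group means correlated at 0.62, 0.16 and 0.36 in animals 1, 2 and 3. Alternatives covered normalization, pseudocount, filter, variance model, pairing, array set and leaving out each animal or array. The model was tested on simulated data with independent noise on each array and the same added difference in every animal. Those data held no variation particular to a hemisphere, so they do not show how the model does where such variation is present. Named genes were all member probe sets, up to 3 called or otherwise the 2 of largest difference per list, and the 5 most alike profiles; other genes were added for their known roles or position after their values were seen. The members and lists were chosen with earlier results of these data known. The number of arrays limits the precision.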

Additional observations from a re-analysis of the deposited data

How the results depend on the processing

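The 6 IFIT probe sets that separated the groups were higher in BV tissue under all 28 alternatives, with differences from 1.03 to 3.06 over all 6. The number of IFIT probe sets called higher was 1 as reported. It was 5 with the replicate block on 12 single arrays, with animal block and piece term, and with hemisphere as a random block; 4 in piece 1 arrays alone; and 0 in piece 2 arrays alone, without normalization, without the filter (adjusted p = 0.0516 for IFIT3 MmugDNA.24962.1.S1_at) and without the variance trend. It ran from 0 to 6 when 1 animal or array was left out, with 6 without animal 2. The count over all probe sets was 9 as reported, 55 with the replicate block on the 6 pairs, 38 with the piece term, 49 with hemisphere as a random block, 4 with no replicate block, 14 in piece 1 arrays, 0 in piece 2 arrays (1747 at an unadjusted p under 0.05), 1 without normalization, 5 without the filter and 1 without the trend. Leaving out 1 animal or array gave 0 (mock replicate 5; 1703 at an unadjusted p under 0.05) to 1845 (animal 2). The causes were not tested. Of the 10 probe sets, 3 changed sign, all of IFIT2 and near 0. In piece 1 arrays MmugDNA.13561.1.S1_at had -0.041, Mmu.105.1.S1_s_at -0.039 and Mmu.105.1.S1_at -0.18, and without normalization Mmu.105.1.S1_at had -0.047. With 1 animal or array left out these 3 ran from -0.068 to 0.079, -0.069 to 0.18 and -0.13 to 0.20. Mmu.105.1.S1_x_at kept its sign. At the 60th percentile filter Mmu.105.1.S1_at was not tested. The interaction test gave 0 IFIT calls under 7 alternatives.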
